A study of Mus musculus with 12 samples.

Results

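Described here are the genes at the far end of mouse chromosome 11, with a start of 100000000 or more in the mm10 build and a length under 500000 bases. Of 437 counted genes of this segment, 5 were left out by name (Rpl27, Rpl38, Mrps7, Mrpl38 and Mrpl12), since names beginning Nduf, Mrpl, Mrps, Rpl, Rps or Hist were not taken. This left 432 of the 22556 genes counted, with starts from 100011198 to 121830217, 193 of them on the plus strand and 239 on the minus strand. Their lengths ran from 625 to 435351 bases, with a median of 11644.5, and 384 are protein coding in the GENCODE M21 annotation. The segment was chosen by its 129S share and its total counts, which differed between the lines. Differences between lines in these values are therefore given as a description, without a test.

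Chromatin-associated RNA (ChrRNA), which is largely nascent transcript, was sequenced from iXist-ChrX mESCs, female mouse embryonic stem cells that are a hybrid of 129S and Castaneus. In all lines used here the Xist promoter of the 129S X chromosome had been replaced with a TetOn promoter, so that doxycycline (Dox) switches on Xist from that chromosome, and each line was sequenced before and after 24 h of induction. Wild type (WT) had 1 library in each state. The XistDelA line, which lacks the A-repeat of Xist, had 3 clones in each state, named C1, 2C2 and C11. XistDelm6A 11C (11C), a single line that lacks the m6A region next to the A-repeat, had 2 replicates in each state. The deletion in C11 has a different designation in the deposited data from the one in C1 and 2C2. The paper names 2 deletions of the A-repeat, a precise one and a larger one reported earlier. Whether the 3 clones carry the same deletion is not known from the labels. The cells were grown on feeder fibroblasts and pre-plated before extraction. The study's methods speak of biological replicates, and the labels do not say whether those of 11C were separate cultures, so p-values measure only the spread between these samples, which may be technical.

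A hybrid cell with 1 copy of a chromosome from each parent makes about equal amounts of most transcripts from both parental genomes. The 129S share, which is the 129S counts over the 129S and Castaneus counts together, is then near 0.5 for most autosomal genes. Cultured mESCs are known to gain whole chromosomes or parts of them, and chromosomes 8 and 11 are among those most often gained. By arithmetic alone, 1 of 3 copies from 129S gives a share of 0.333, 2 of 3 give 0.667, and 3 copies in place of 2 give a log2 difference of 0.58. DNA was not measured in these libraries, and copy number was not tested. The far end of chromosome 11 holds, among others, genes for splicing factors, chromatin proteins, signal transducers of the LIF pathway, and enzymes of fatty acid synthesis. The LIF pathway keeps mESCs undifferentiated.

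The promoters of 4 genes are shown because the values turn on them. Med1 and Cdk12 are neighbours just below 100 Mb between which the values of clone 2C2 change. Alyref and Jup had the lowest and the highest 129S share in 2C2, as the mean of its libraries, among the genes that had 100 or more allelic counts in every library. The sequences come from RefSeq (GRCm38.p6, the assembly behind mm10) and run 5′ to 3′ on the strand of the gene, from 250 bases before the start that RefSeq gives to 50 after it. For Med1 this start lies inside the gene as it was counted, and so does the whole window. Capitals mark the GC box, GGGCGG or CCGCCC, which is the binding motif of Sp1 family factors. The Med1 promoter lies at chr11:98192857-98193156 on the minus strand, Cdk12 at chr11:98203055-98203354 on the plus strand, Jup at chr11:100397741-100398040 on the minus strand and Alyref at chr11:120598316-120598615 on the minus strand.
Med1: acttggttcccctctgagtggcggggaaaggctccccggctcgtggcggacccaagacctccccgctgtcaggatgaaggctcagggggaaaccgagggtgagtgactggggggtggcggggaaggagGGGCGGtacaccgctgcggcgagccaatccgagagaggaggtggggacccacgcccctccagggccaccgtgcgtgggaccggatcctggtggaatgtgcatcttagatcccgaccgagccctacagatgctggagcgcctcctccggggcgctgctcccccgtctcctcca
Cdk12: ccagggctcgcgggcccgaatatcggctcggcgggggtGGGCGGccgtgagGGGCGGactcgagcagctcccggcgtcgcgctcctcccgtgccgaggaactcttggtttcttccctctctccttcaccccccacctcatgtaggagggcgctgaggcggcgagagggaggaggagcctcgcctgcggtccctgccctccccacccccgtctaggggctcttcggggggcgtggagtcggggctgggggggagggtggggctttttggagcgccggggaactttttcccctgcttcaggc
Jup: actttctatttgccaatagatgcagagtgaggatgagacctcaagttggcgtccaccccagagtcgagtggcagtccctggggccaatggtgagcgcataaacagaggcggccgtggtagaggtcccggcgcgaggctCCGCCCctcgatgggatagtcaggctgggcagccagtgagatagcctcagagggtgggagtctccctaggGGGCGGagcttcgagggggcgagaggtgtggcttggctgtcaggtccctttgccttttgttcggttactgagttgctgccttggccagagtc
Alyref: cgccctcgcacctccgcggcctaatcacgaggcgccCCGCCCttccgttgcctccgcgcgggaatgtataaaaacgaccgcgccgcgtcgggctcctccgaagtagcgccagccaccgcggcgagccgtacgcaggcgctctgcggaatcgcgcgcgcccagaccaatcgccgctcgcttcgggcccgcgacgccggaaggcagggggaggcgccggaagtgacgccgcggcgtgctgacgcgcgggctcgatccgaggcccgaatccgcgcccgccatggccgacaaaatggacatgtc

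Promoters were found in RefSeq for 302 of the 432 genes, with 377 start sites in all. The GC box, searched on both strands, was present in 54.4% of these 377 promoters and in 35.7% of all 32851 promoters of the same length. CCAAT, also searched on both strands as CCAAT or ATTGG, was present in 40.8% and 37.4%. TATAAA (or TTTATA on the other strand) was present in 10.6% and 13.6%. The median GC content was 59.7% and 52.7%. A match describes these letters in this window and not a bound site.

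Before induction, the counts on genes were 27022431 in WT, 25742430 in C1, 22949578 in 2C2, 26081951 in C11, and 21551628 and 18893447 in the 11C replicates. After induction they were 27795782 in WT, 27489603 in C1, 27300014 in 2C2, 27469878 in C11, and 36007145 and 21079263 in 11C. Between 44.6% and 47.1% of the counts could be assigned to a parental genome. The genes of the segment held from 1.11% of all counts, in C11 without Dox, to 1.67%, in 11C replicate 1 with Dox. Which allelic count is 129S was inferred from Xist, whose inducible copy is on the 129S X: in WT with Dox, 60464 of its allelic counts fell on the genome taken as 129S and 62 on the other. Xist rose from 302 to 5472 CPM (counts scaled to a common library total, after TMM normalization) in WT, from 127 to 1559 in C1, from 133 to 1285 in 2C2, from 164 to 1646 in C11, and from 91.3 to 2795 and from 84.1 to 4814 in the 11C replicates. Dox thus switched on Xist in every pair of libraries.

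The 4 libraries of 11C stood apart from the other 8. Rmrp, the RNA of the mitochondrial RNA processing complex, was at 3698 to 8037 CPM in 11C and at 503 to 968 CPM in the others. The SD of the log2 ratio to C11 over autosomal genes outside chromosomes 1, 6, 8, 11 and 12, here called other autosomes, was 0.62 to 0.70 in 11C and 0.20 to 0.35 in WT, C1 and 2C2. Chromosomes 1, 6, 8 and 12 were left out of this reference because parts of them had been seen to differ between lines. Results that rest on 11C are given beside those without it, and the part of this difference in the values of 11C was not tested.

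Of 10 markers of mESCs, 9 had counts in every library, and Sox2, whose span lies inside that of Sox2ot on the same strand, was at 0. They summed to 1751 and 1830 CPM in WT (without and with Dox), 1751 and 1818 in C1, 1732 and 1955 in 2C2, 1875 and 1960 in C11, 1660 and 1985 in 11C replicate 1, and 1371 and 1326 in replicate 2. Zfp42 (Rex1), a transcription factor of undifferentiated cells, was the most abundant. The 10 feeder fibroblast markers summed to 56.5 and 49.8 CPM in WT, 60.9 and 54.8 in C1, 59.0 and 59.7 in 2C2, 67.4 and 67.8 in C11, and 39.3, 35.9, 33.5 and 32.1 in 11C. Fbn1, for fibrillin, was the most abundant, and 1 of the 10 was at 0 in 11C replicate 2 without Dox. The 10 markers of early differentiation summed to 34.7 and 35.2 CPM in WT, 31.1 and 32.6 in C1, 31.8 and 33.4 in 2C2, 33.2 and 35.2 in C11, 44.8 and 42.2 in 11C replicate 1, and 44.9 and 39.6 in replicate 2. The summed level of the differentiation markers was thus higher and that of the feeder markers lower in each 11C library than in the other lines, and the mESC sum was lowest in 11C replicate 2. Nes, for nestin, the most abundant differentiation marker, did not follow its sum, at 8.58 to 12.3 CPM in 11C and 11.8 to 17.1 in the other lines, and Sox1 was at 0 in every library. Whether other cells had a part in the results was not tested.

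For the segment, the 129S share separated the lines. Of the 432 genes, 264 reached a mean of 20 allelic counts, and their median share was 0.367 without Dox and 0.364 with Dox in 2C2. It was 0.690 and 0.696 in C1, 0.681 and 0.682 in 11C replicate 1, and 0.683 and 0.685 in replicate 2. It was near even in C11 (0.520 and 0.521) and in WT (0.503 and 0.514). On other autosomes the median share lay between 0.520 and 0.526 in every library. The share of the segment was thus lowest in 2C2, high in C1 and in every library of 11C, and near that of other autosomes in C11 and WT. In WT it was also below the share of the same chromosome under 100 Mb, as given further on.

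**Figure D1:**
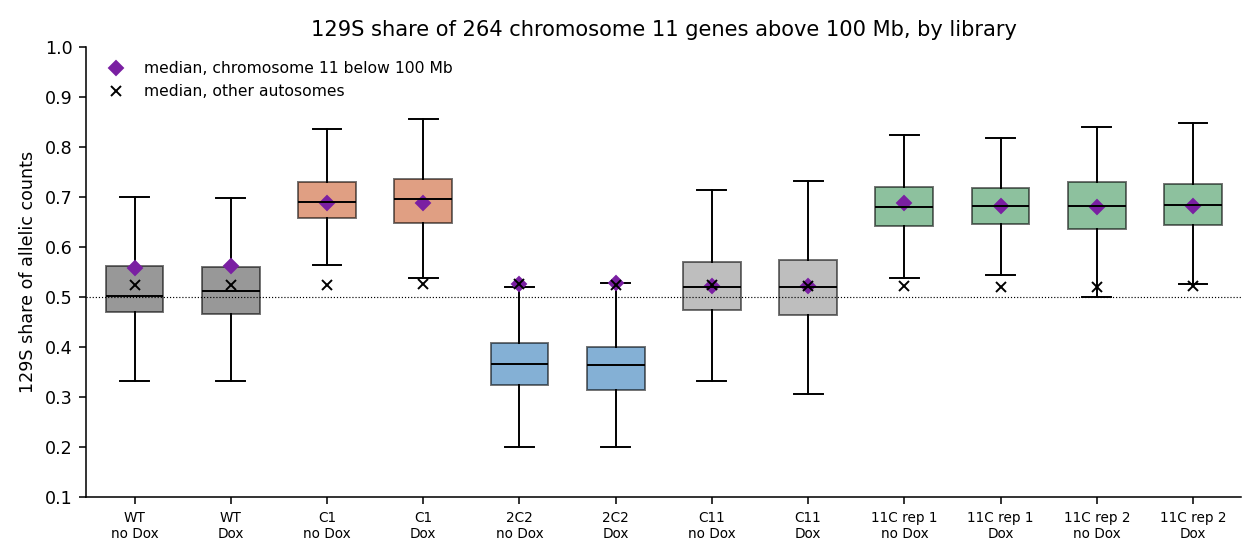
129S share of the 264 chromosome 11 genes above 100 Mb in each of the 12 libraries (boxes span the quartiles, lines the medians, and whiskers reach to 1.5 times the box), with the medians of chromosome 11 below 100 Mb (diamonds) and of other autosomes (crosses). The boxes of both 2C2 libraries lie under those of the others, and those of C1 and 11C lie above.

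Summed over the genes, 52696 of 146070 allelic counts were 129S in 2C2 without Dox, a share of 0.361 (95% exact Clopper-Pearson interval 0.358 to 0.363). In C1 without Dox the summed share was 0.686 (95% exact interval 0.684 to 0.689), in C11 0.520 (0.517 to 0.522) and in WT 0.505 (0.502 to 0.507). Such intervals cover counting error only. Since reads amplified by PCR were counted without molecular identifiers, the intervals may be too narrow even for that. The quartiles of single genes were 0.325 and 0.409 in 2C2 and 0.658 and 0.730 in C1, both without Dox.

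Gene by gene, both 2C2 libraries had a lower share than all 10 others for 225 of 264 genes (3.77% of the 11914 genes compared genome-wide). The 6 libraries of C1 and 11C all had a higher share than the other 6 for 205 of 264 genes (6.92% genome-wide). Without the 11C libraries, 2C2 had fewer libraries to pass, and only those of C1 had to be highest. The counts were then 85.6% (5.96% genome-wide) and 87.1% (11.8% genome-wide) of the 264 genes, against 85.2% and 77.7% with the 11C libraries. Since the shares chose the segment, these counts only describe it. Against C11, the share was lower in 2C2 for 260 of 264 genes (47.9% genome-wide) and higher in C1 for 261 (56.8% genome-wide) and in 11C for 260 (51.5% genome-wide). In WT it was lower for 169 (45.6% genome-wide) and higher for 95 (54.3% genome-wide).

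Below 100 Mb on the same chromosome the pattern differed for 2C2 and for WT. Over 722 genes the median share in 2C2 was 0.526 and 0.530, close to other autosomes. In WT it was 0.559 and 0.562, above its values of 0.503 and 0.514 for the segment. C1 (0.688 and 0.689) and 11C (0.680 to 0.688) were about as high below 100 Mb as above it. In 2C2 the share was lowest of all libraries for 62 of these 722 genes (3.77% genome-wide), while C1 and 11C were highest for 519 (6.92% genome-wide). The genes below 100 Mb include those from Cdk12 up to that point, most of which had the pattern of the segment in 2C2. In C1 and 11C the median share was thus above that of C11 on both sides of 100 Mb. In 2C2, and by less in WT, the median share was below that of C11 only above 100 Mb.

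Dosage was measured as the log2 of CPM plus 0.5 minus that of clone C11 in the same state, for the 257 of 432 genes that averaged 50 counts or more. The median dosage without and with Dox was 0.39 and 0.41 in 2C2, 0.40 and 0.38 in C1, and 0.23 and 0.21 in WT. In 11C it was 0.46 and 0.64 in replicate 1 and 0.29 and 0.25 in replicate 2. On other autosomes the median lay between -0.05 and 0.00 in WT and the clones and between -0.12 and -0.02 in 11C. C11 was taken as the reference because its chromosome 11 share was nearest even in an earlier account of these data. The 4 lines share C11 as their control, so a high or low value of C11 would move all of them together. The segment held 1.11% and 1.13% of all counts in C11, and 1.35% or more in every library of the other lines. In these bulk libraries, fewer cells of a type and less RNA per cell cannot be told apart.

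A gene was counted as raised where its log2 dosage was at least 0.32 in every library of a line. In 2C2 this held for 136 of 257 genes (5.64% of the 12283 genes measured genome-wide), and in C1 for 111 (11.4% genome-wide). In 11C it held for 83 (13.0% genome-wide) and in WT for 18 (2.79% genome-wide). Genes lowered by the same fold in every library numbered 0 in 2C2 (4.73% genome-wide) and 1 in each of C1, 11C and WT (7.78%, 13.5% and 2.04% genome-wide). Of the 257 genes, 5 reached the minimum of 50 counts only through their counts in 11C. With the minimum set over the other 8 libraries, chosen after seeing the data, 133 of 252 genes were raised in 2C2 (5.61% genome-wide), 106 in C1 (11.1% genome-wide) and 16 in WT (2.72% genome-wide). In 11C 80 were raised, beside 1453 of 12110 genes genome-wide. The count in 11C depended on replicate 2, since with replicate 1 alone, which asks less of each gene, 151 genes were raised (21.3% genome-wide), and with replicate 2 alone 90 (20.6% genome-wide). With WT in place of C11 as the reference, 27 genes (10.5%) were raised in 2C2, 26 (10.1%) in C1 and 51 (19.8%) in 11C, against 2.69%, 6.37% and 11.8% genome-wide. The median dosage was then 0.18, 0.15 and 0.20, so that both the counts and the medians were lower than with C11.

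The counts of raised genes also depended on how low counts were treated. With a pseudocount of 5 CPM, which draws them together, 78 genes were raised in 2C2 (2.98% genome-wide), 74 in C1 (7.02%), 53 in 11C (8.97%) and 7 in WT (1.29%). With a mean of at least 500 counts, 77 of 124 genes were raised in 2C2 (4.64% of 6763 genes genome-wide), 61 in C1 (9.76%), 31 in 11C (9.60%) and 5 in WT (1.92%). In 2C2, C1 and 11C the raised share of the segment stayed above the genome-wide one under both settings. Scaled by library totals, 33 genes were raised in WT (3.61% genome-wide).

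Below 100 Mb the median dosage in 2C2 was -0.10 in both states, against 0.39 and 0.41 above it. It was 0.41 and 0.38 in C1 and 0.31 to 0.45 in 11C, so that the medians of these lines were above C11 on both sides. In WT it was 0.09 in both states, against 0.23 and 0.21 above 100 Mb. Raised genes numbered 16 of 725 in 2C2 (5.64% genome-wide), 365 in C1 (11.4%), 231 in 11C (13.0%) and 22 in WT (2.79%). Here too the genes below 100 Mb include those from Cdk12 up to that point.

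**Figure D2:**
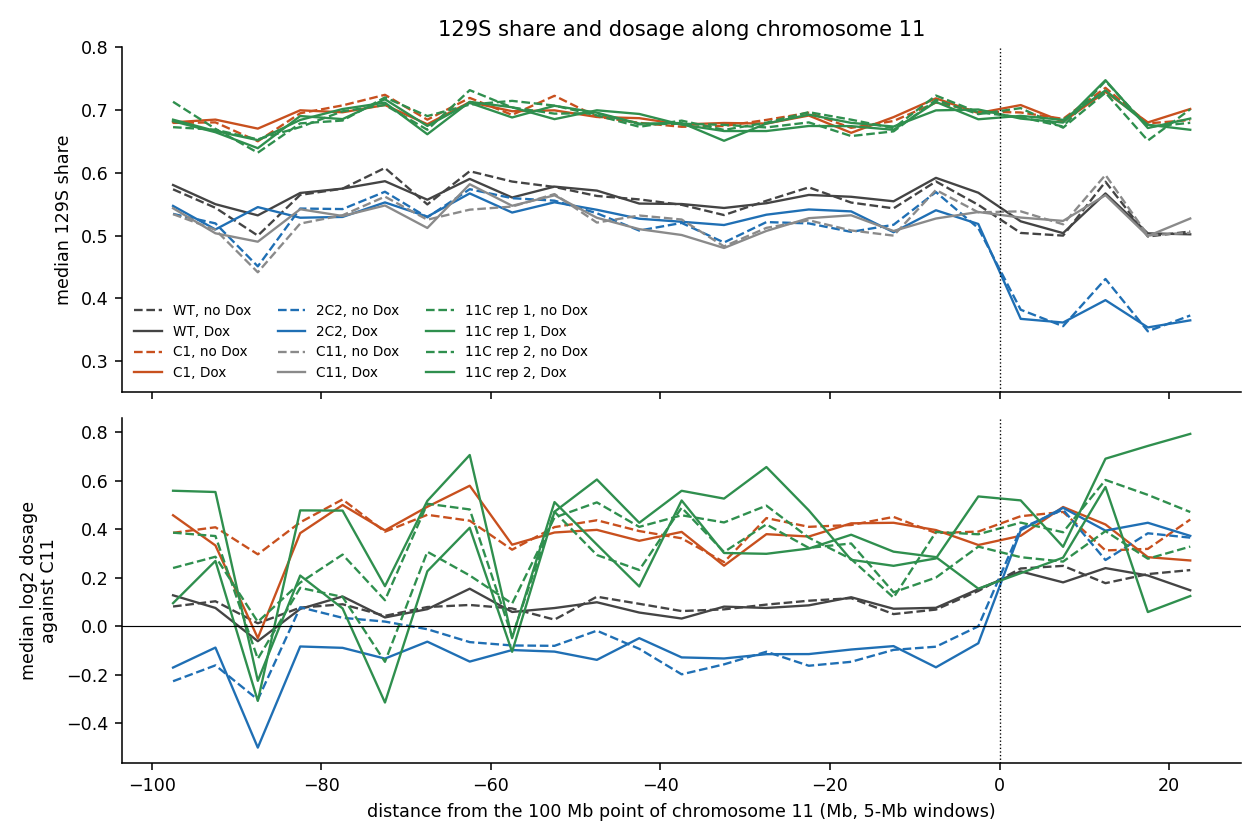
Median 129S share (top) and median log2 dosage against C11 (bottom) in 5-Mb windows along chromosome 11, by distance from the 100 Mb point (dotted line), for each library (solid with Dox, dashed without). The 2C2 curves step down in share and up in dosage near the point, and the WT curves do so by less. C1 and 11C are at about 0.7 in share on both sides.

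The counts of each parental genome show which one carried the difference. In 2C2 the Castaneus counts of the segment were higher than in C11 by a median log2 value of 0.62 without Dox and 0.75 with Dox, while the 129S counts differed by -0.13 and -0.06. In C1 the 129S counts were higher by 0.69 and 0.72 and the Castaneus counts differed by -0.18 and -0.19. In WT both were higher, Castaneus by 0.23 and 0.21 and 129S by 0.17 and 0.18. The raised genome was thus Castaneus in 2C2 and 129S in C1.

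In 11C the 129S counts were higher by 0.65 and 0.81 in replicate 1 and by 0.51 and 0.49 in replicate 2. The Castaneus counts differed by -0.15 and 0.04 in replicate 1 and by -0.30 and -0.34 in replicate 2. Below 100 Mb, Castaneus counts in WT differed from C11 by -0.02 in both states and 129S counts by 0.17 and 0.18. In WT, then, the value of the 129S genome was the same on both sides of 100 Mb and that of the Castaneus genome was not.

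**Figure D3:**
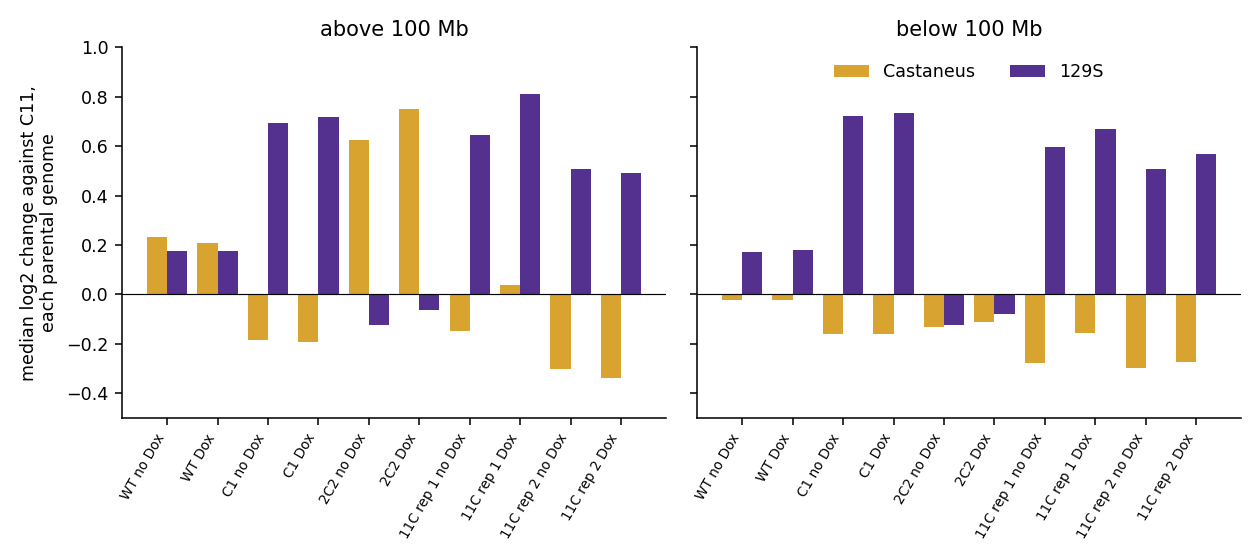
Median log2 change against C11 of the counts of each parental genome (bars from 0), above 100 Mb (left) and below 100 Mb (right), by library. The Castaneus bars of 2C2 reach 0.62 and 0.75 above 100 Mb and lie at -0.13 and -0.11 below it.

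The threshold of 100 Mb did not mark the place where the values changed. The nearest informative genes below it were Top2a, Igfbp4 and Smarce1, with mean 129S shares in 2C2 of 0.332, 0.583 and 0.381, and the nearest above it were Krt42, Eif1 and Hap1, with 0.332, 0.495 and 0.397. In C11 the shares were 0.488, 0.537 and 0.530 for the genes below and 0.649, 0.580 and 0.607 for those above. Top2a, the topoisomerase of chromosome condensation, and Smarce1, a subunit of the BAF remodelling complex, were below the threshold and had dosages in 2C2 of 0.58 and 0.40, and of 0.52 and 0.49. Above it, Eif1, a factor of translation start, had 0.54 and 0.38, and Hap1, which binds huntingtin, had 0.38 and 0.64. These 4 genes were raised in 2C2, and the remaining pair were not. Igfbp4, which binds insulin-like growth factors, had 0.18 and 0.24, and Krt42, a keratin, had 0.06 and -0.29. Both had means under 100 counts.

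The change in 2C2 lay between the neighbours Med1 and Cdk12, which were chosen after their values were seen. Med1 (chr11:98152154-98193293, minus strand), a subunit of the Mediator complex, had a share in 2C2 of 0.547 without Dox (95% exact interval 0.514 to 0.580) and 0.535 with Dox. Its share was 0.548 and 0.529 in C11 and 0.559 and 0.570 in WT. Its dosage was -0.06 and -0.08 in 2C2 and 0.13 and 0.12 in WT. Med1 thus had the values of the part of the chromosome below it.

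Cdk12 (chr11:98203304-98253540, plus strand), the kinase that phosphorylates elongating RNA polymerase II, was the first gene past the change. Its counts in 2C2 were 26766 and 28635, against 12215 and 11789 in C11, 17675 and 17074 in WT, and 15110 and 14736 in C1. In 11C they were 9668 and 13902 in replicate 1 and 8562 and 9078 in replicate 2. Its share was 0.178 in 2C2 without Dox (95% exact interval 0.170 to 0.186) and 0.172 with Dox, and 0.375 and 0.372 in WT. In C11 it was 0.494 and 0.498, and in C1 0.678 and 0.670. In 2C2 the Castaneus counts were higher than in C11 by 2.20 and 2.12, and in WT by 0.84 and 0.81, while the 129S counts differed by 0.03 and -0.13 in 2C2 and by 0.14 and 0.07 in WT. The dosage of Cdk12 in 2C2, 1.34 and 1.27, was far above the median of the segment, and both 2C2 libraries were above all others in counts. In WT the share also fell from Med1 to Cdk12, and the dosage rose from 0.13 and 0.12 to 0.45 and 0.46.

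**Figure D4:**
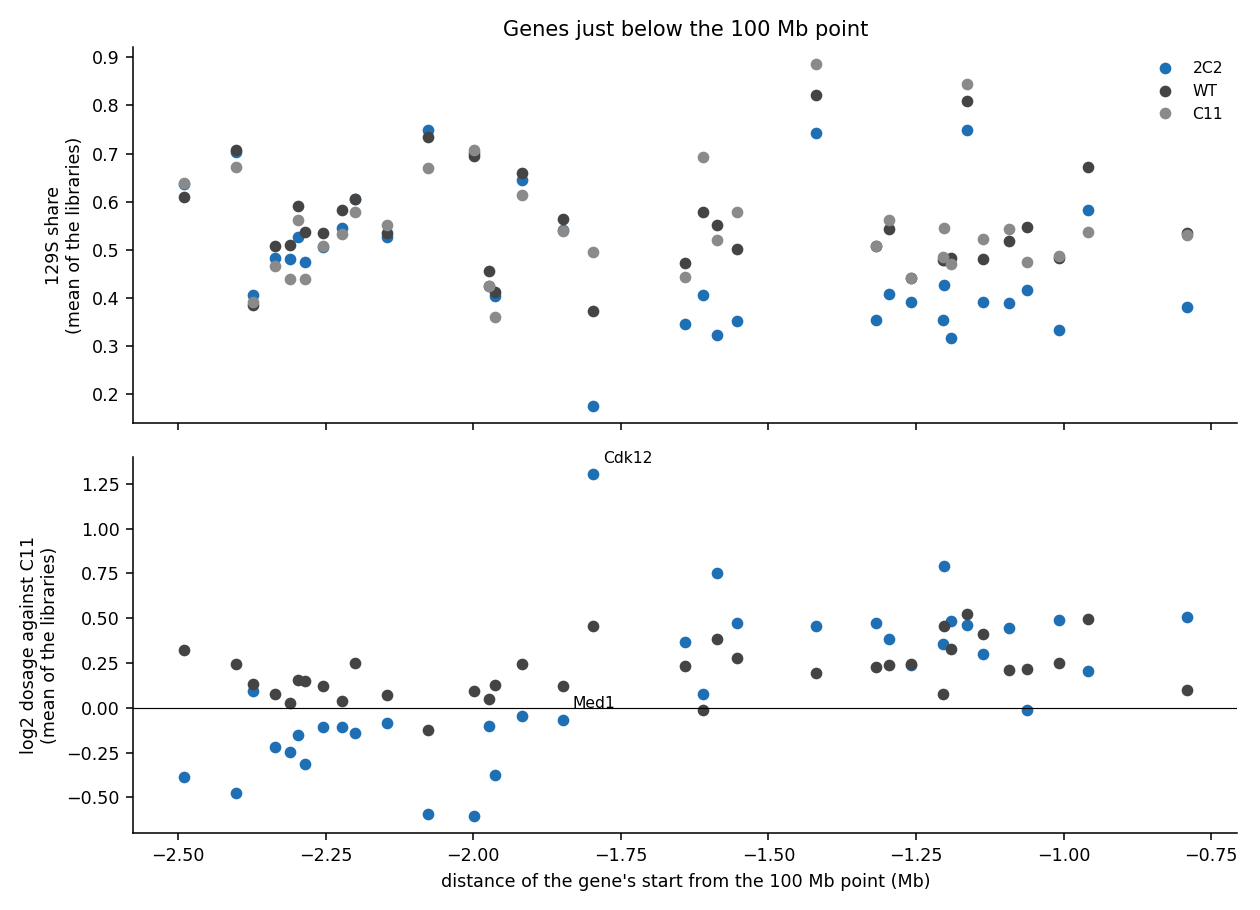
Genes averaging 50 or more counts just below the 100 Mb point, each placed by the distance of its start from that point, with the mean 129S share (top) and mean log2 dosage against C11 (bottom) in 2C2, WT and, for the share, C11. In 2C2 most genes up to Med1 have a share near that of C11, and Cdk12 and most genes after it have a lower one.

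Most other genes between Cdk12 and 100 Mb had the pattern of the segment in 2C2, with exceptions. Erbb2, a receptor tyrosine kinase, had dosages in 2C2 of 0.68 and 0.83 and a share of 0.329 and 0.315. Psmd3, a proteasome subunit, had 0.50 and 0.45 and a share of 0.349 and 0.360. Rara, the retinoic acid receptor, had dosages of 0.00 and -0.02 in 2C2 while its share was 0.452 and 0.380. These 3 genes were chosen after their values were seen.

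The counts of raised genes in each list stand beside 136 of 257 in 2C2, 111 in C1, 83 in 11C and 18 in WT for the whole segment, and no list was tested against the segment. Of the 13 genes of RNA processing, all measured, 12 were raised in 2C2, 8 in C1, 1 in WT and 0 in 11C, with median dosages of 0.49, 0.40, 0.28 and 0.09. Ddx5, an RNA helicase of splicing and transcription, had 28187 and 29733 counts in 2C2, 28888 and 28939 in C1, 18035 and 19578 in C11, and 24046 and 25871 in WT. In 11C it had 14682 and 24267 in replicate 1 and 16640 and 18883 in replicate 2. Its dosage was 0.85 and 0.59 in 2C2, 0.68 and 0.54 in C1, and 0.33 in both WT libraries, while in 11C it was below 0 in replicate 1 (-0.21 and -0.29) and above 0 in replicate 2 (0.27 and 0.36).

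Srsf2, a splicing factor of the SR family, had dosages of 0.77 and 0.57 in 2C2 and 0.50 and 0.29 in C1. In 11C it lay between -0.07 and 0.11. Sumo2, a small modifier protein, had 0.40 and 0.37 in 2C2 and values from -0.55 to -0.30 in 11C. Alyref, an mRNA export adaptor, had 0.54 and 0.36 in 2C2 and values from -0.16 to 0.07 in 11C. Although the 129S share of the list was high in 11C (median 0.676), these genes were not raised there. The share of Alyref itself was not high in 11C, at 0.170 to 0.289, beside 0.244 and 0.211 in C11.

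Of the 14 chromatin genes 12 were measured, and 7 were raised in 2C2, 4 in C1, 3 in 11C and 1 in WT. Bptf, the largest subunit of the NURF remodeller, had 12129 and 14851 counts in 2C2, 13852 and 14205 in C1, 9609 and 10037 in C11, and 13097 and 13806 in WT. In 11C it had 10604 and 18070 in replicate 1 and 8280 and 8711 in replicate 2. Its dosage was 0.54 and 0.55 in 2C2, 0.53 and 0.47 in C1, 0.37 and 0.39 in WT, and 0.17 to 0.25 in 11C, so that every library was above C11. Its share was 0.315 and 0.312 in 2C2, 0.647 and 0.636 in C1, and 0.465 and 0.457 in C11.

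Kansl1, a subunit of the NSL histone acetyltransferase complex, had dosages of 0.33 in both 2C2 libraries, 0.39 and 0.43 in C1, and -0.26 to 0.16 in 11C. Ubtf, which drives transcription of ribosomal RNA genes, had 0.29 and 0.28 in 2C2 and 0.22 and -0.01 in C1. H3f3b, for the replacement histone H3.3, had 0.98 and 0.55 in 2C2, 0.96 and 0.35 in C1, and 0.27 to 1.12 in 11C. H3.3 is also made from H3f3a, and processed copies of these genes exist, so the counts of H3f3b are uncertain where reads match both.

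Of the 14 genes of LIF-STAT and growth signalling 13 were measured, and 8 were raised in 2C2, 10 in C1, 5 in 11C and 2 in WT. The list's median dosage was 0.45 in 2C2, 0.44 in C1, 0.27 in 11C and 0.19 in WT. Gna13, a G protein subunit, had 0.63 and 0.52 in 2C2, and Prkar1a, a regulatory subunit of protein kinase A, had 0.62 and 0.49. Csnk1d, a casein kinase of the circadian clock, had 0.34 and 0.37. All 3 were raised in C1 and none of them in 11C.

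Socs3, which damps LIF signalling, departed from the rest, with dosages of -0.28 and -0.30 in 2C2, 0.18 and -0.24 in C1 and -0.13 and -0.34 in WT. In 11C it had 0.73 and 1.11 in replicate 1 and 0.67 and 0.00 in replicate 2. Its share in 2C2 was 0.372 and 0.287. Stat3, the transcription factor that LIF activates in mESCs, had 1757 and 2068 counts in 2C2 and 2036 and 2142 in C11, and dosages of -0.01 and -0.06 in 2C2 and 0.13 and 0.16 in C1. Its share in 2C2 was 0.348 and 0.369, close to the median of the segment, so its share followed the segment and its dosage did not. Its neighbour Stat5b had 313 and 562 counts in 2C2, 174 and 236 in C11, 354 and 493 in C1 and 285 and 354 in WT. Stat5b had the highest mean dosage of the 257 genes in 2C2, 1.10, and it was raised in every line. Stat5b and its neighbour Stat5a are close paralogs, so reads that match both leave their counts uncertain, and Stat3 and Stat5b were chosen after their values were seen.

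Of the 12 listed genes of cell division and DNA repair 11 were found on the segment and measured, and 5 were raised in 2C2, 2 in C1, 2 in 11C and 0 in WT. Cdc27, a subunit of the anaphase-promoting complex, had 7718 and 7691 counts in 2C2, 8497 and 7734 in C1, 6079 and 5762 in C11, and 7145 and 6632 in WT. In 11C it had 4227 and 6793 in replicate 1 and 3334 and 3616 in replicate 2. Its dosage was 0.55 and 0.40 in 2C2 and 0.48 and 0.40 in C1, while all 4 libraries of 11C were below C11 (-0.48 to -0.26).

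Kpna2, a nuclear import receptor, had dosages of 0.41 and 0.36 in 2C2 and values from -0.68 to -0.07 in 11C. Nup85, a nuclear pore subunit, had 0.47 and 0.44 in 2C2, and Birc5 (survivin), of the chromosomal passenger complex, had 0.41 and 0.28. In 11C both were above C11 in replicate 1 and below it in replicate 2. For Cdc27 and Kpna2 the direction in 11C was thus the opposite of that in 2C2 and C1, although the share of both in 11C was high, at 0.656 to 0.748.

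Of the 13 genes of metabolism and secretion 12 were measured, and 3 were raised in each of 2C2, C1 and 11C and 0 in WT. Fasn, the fatty acid synthase, had dosages of 0.45 and 0.53 in 2C2 and 0.42 and 0.09 in C1. Acly, which makes the acetyl-CoA that Fasn uses, had 0.30 and 0.37 in 2C2 and 0.49 and 0.43 in C1. P4hb, a protein disulfide isomerase of the endoplasmic reticulum, had 0.53 and 0.24 in 2C2 and reached -0.76 in 11C replicate 2 with Dox. Galk1, the first enzyme of galactose use, had 0.14 and 0.60 in 2C2. Most genes of this list were above C11 in 2C2 without reaching the fold in both libraries.

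Of the 7 Wnt and developmental genes, 3 had enough counts to be measured. Axin2, a feedback inhibitor of Wnt signalling, had 198 and 268 counts in 2C2, 203 and 232 in C1, 135 and 170 in C11, and 212 and 267 in WT. In 11C it had 178 and 450 in replicate 1 and 167 and 228 in replicate 2. Its dosage lay between 0.39 and 0.79 in every library, which made it raised in all 4 lines. Notum, which inactivates Wnt ligands, had 1.11 and 1.27 in C1, 0.29 and 0.85 in 2C2, and 0.81 to 1.31 in 11C, and its share was 0.795 or more in every library. Etv4, a transcription factor downstream of FGF signalling, had -0.15 and 0.06 in 2C2 and -0.52 and -0.25 in C1.

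**Figure D5:**
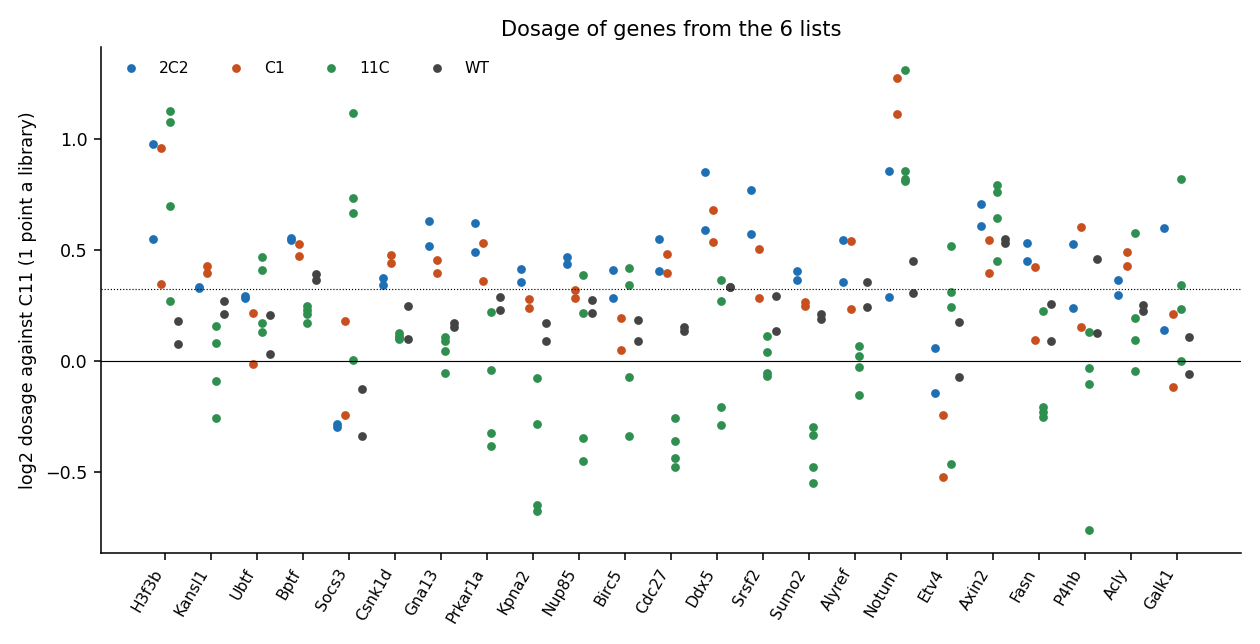
Log2 dosage against C11 of the genes from the 6 lists that were named by their counts per length, with 1 point for each library of 2C2, C1, 11C and WT (dotted line: the fold that counts as raised). Most points of 2C2 and C1 lie above 0, and those of 11C lie on both sides of it for many of the genes.

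Some complexes have subunits on the segment and elsewhere in the genome. In the anaphase-promoting complex, the 2 subunits on the segment, Cdc27 and Anapc11, had a median dosage of 0.39 in 2C2, and the 12 elsewhere had -0.01. In the lid and base of the proteasome, the 2 on the segment, Psmc5 and Psmd12, had 0.46 and the 16 elsewhere had 0.03. Eif4a3, the helicase of the exon junction complex, had 0.45, and the other 4 subunits had 0.01. In these complexes the medians in 2C2 were higher on the segment than elsewhere, although the subunits elsewhere include Casc3 and Psmd3, which lie on chromosome 11 past Cdk12, and Psmd11, which lies on it further below.

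In C1 the medians on and off the segment were 0.25 and -0.13 for the anaphase-promoting complex and 0.46 and -0.08 for the proteasome. In 11C they were -0.19 and -0.30, and -0.25 and -0.37. For the exon junction complex they were 0.37 and 0.06 in C1, and -0.14 and -0.43 in 11C. Of canonical PRC1, only 1 of the 3 subunits on the segment, Cbx2, had enough counts. The 7 measured elsewhere include Pcgf2, which lies on chromosome 11 below Med1. Cbx2 had 0.38 in 2C2, against a median of 0.00 for those 7. In C1 these values were 0.19 and -0.04, while in 11C the order was the reverse, with -0.31 for Cbx2 and -0.17 elsewhere. For the LIF pathway the order in 2C2 was the reverse, with -0.16 for Stat3 and Socs3 and 0.17 for 8 genes elsewhere. It was not reversed in C1 (0.06 and -0.02) or in 11C (0.30 and -0.24).

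The lowest shares in 2C2, among the 138 genes with at least 100 allelic counts in every library, were those of Alyref (0.155 and 0.168), Mapt (0.169 and 0.159) and Ccdc57 (0.261 and 0.249). Alyref was low in every library, from 0.155 to 0.289, and was at 0.244 and 0.211 in C11. Mapt, for the microtubule protein tau, was at 0.310 and 0.307 in C11 and at 0.450 and 0.455 in C1. The shares of these genes in 2C2 were thus low beside a C11 value that was also below 0.5.

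The highest were those of Jup (0.701 and 0.663), Cdc42ep4 (0.592 and 0.545) and Pitpnc1 (0.584 and 0.538). Jup, for plakoglobin of cell junctions, was at 0.832 and 0.822 in C11 and at 0.866 and 0.905 in C1. Pitpnc1, a phosphatidylinositol transfer protein, was at 0.746 and 0.760 in C11. These genes were above 0.5 in 2C2 and still below their own values in C11. The promoters shown above differ in the number of GC boxes, 1 in Alyref and 2 in Jup, and no relation to the share was tested.

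Most but not all genes shared the direction of the segment in dosage. Of the 257 genes, 17 were below C11 in 2C2, 16 in C1, 44 in 11C and 23 in WT, against 51.4%, 54.3%, 54.7% and 52.3% of all genes measured. The lowest mean dosage in 2C2 was that of Dnah17, an axonemal dynein (-0.54), and the highest in C1 was that of Tex19.1, a germline and stem cell gene (1.32). Both genes were chosen after their values were seen, and Dnah17 had a mean under 100 counts.

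In 2C2 and C1 the values varied little with abundance. Split into 3 groups by mean count, the median dosage in 2C2 was 0.40, 0.36 and 0.45 from the lowest to the highest counts, and 0.37, 0.31 and 0.42 in C1. By length the values in 2C2 were 0.40, 0.44 and 0.37 from short to long, and by position 0.45, 0.42 and 0.36 with growing distance from 100 Mb. The median share in 2C2 lay between 0.363 and 0.374 in all of these groups. In 11C a split by counts that include its own would favour genes high there. Split by the mean over the other 8 libraries, chosen after seeing the data, the median dosage in 11C was 0.64, 0.39 and 0.22 from the lowest to the highest counts.

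The response to Dox did not choose the segment and was tested with edgeR quasi-likelihood fits over all genes. The share hardly moved, with median changes per pair of libraries from -0.0033 in 2C2 to 0.0057 in WT. Total counts moved by median log2 values of 0.00 in WT, 0.05 in C1, 0.08 in 2C2, 0.01 in C11, and 0.19 and -0.02 in the 11C replicates. The 2 replicates of 11C thus differed in direction.

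Over the XistDelA clones, 0 of 316 tested genes of the segment passed with edgeR and Benjamini-Hochberg adjustment (0.0202% of 14866 genes genome-wide). At an unadjusted p under 0.05 there were 12 (14.5% genome-wide). This fit counts differences in level between the clones as spread, and the segment has such differences. A weaker response of the segment therefore cannot be read from it. Without C11 the same count was 37 of 319, beside 1930 of 14922 genes genome-wide. With DESeq2 2 passed (2.83% genome-wide), H3f3b and Slc16a3 (a lactate transporter named after its values were seen), both lower with Dox. DESeq2 gave an adjusted p to only 8524 of the 14866 genes, so the others could not pass. With the clone as a block in edgeR, so that each clone is compared with itself, 85 of 316 passed (29.7% genome-wide). Of these, 49 rose (14.8% genome-wide) and 36 fell (14.9% genome-wide), close to the genome-wide shares. With the block and without C1, 2C2 or C11, 38, 48 and 99 passed (14.5%, 18.6% and 33.5% genome-wide).

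H3f3b fell the most with the block. Its counts without and with Dox were 5397 and 2358 in C1, 4739 and 2685 in 2C2, and 2771 and 1817 in C11. They were 3322 and 2010 in WT, 4240 and 3327 in 11C replicate 1, and 4485 and 2984 in replicate 2. It was lower with Dox in 6 of 6 pairs after scaling, by log2 values from -1.30 to -0.65. In edgeR quasi-likelihood fits with Benjamini-Hochberg adjustment its log2 change over the clones was -1.05 (standard error 0.07, adjusted p = 3.8e-12) with the block and -1.09 (standard error 0.27, adjusted p = 0.187) without it.

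Nptx1, for neuronal pentraxin, and Krt17, a keratin, also fell with the block, with log2 changes of -0.90 and -0.71, and both were lower with Dox in 6 of 6 pairs. Krt17 had only 13 to 61 counts in any library. Arsg, a lysosomal sulfatase, Wnt3, a Wnt ligand, and Stat5a rose with the block, with log2 changes of 0.81, 0.74 and 0.70. Arsg went from 63 to 157 counts in C1, from 78 to 164 in 2C2 and from 70 to 99 in C11. It was higher with Dox in all 3 clones and both 11C replicates and lower in WT (-0.12). Wnt3 and Stat5a had at most 84 counts in any library, and their pairs were less alike. Wnt3 changed by 0.90, 0.43 and 0.03 in C1, 2C2 and C11, by 0.38 and 0.16 in 11C and by 0.14 in WT. Stat5a changed by 0.60, 0.61 and 0.14 in the clones, was lower with Dox in 11C replicate 1 (-0.24), at 0.12 in replicate 2, and near 0 in WT. Without the block, none of these 5 genes passed in the edgeR quasi-likelihood fit, with Benjamini-Hochberg adjusted p from 0.231 to 0.492.

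In 11C, 0 of 328 tested genes of the segment passed without a block (0% of 15140 genes genome-wide with edgeR), 4 had an unadjusted p under 0.05 (1.14% genome-wide), and 0 passed with DESeq2 (0.0198% genome-wide). Without the second replicate with Dox 2 passed (0.0901% genome-wide), Taco1 and H3f3b. That fit takes the remaining library with Dox to vary as those without Dox do.

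For the difference in Dox response between 11C and the XistDelA clones, 0 of 340 genes passed with edgeR (0% of 15745 genes genome-wide), 1 had an unadjusted p under 0.05 (1.48% genome-wide), and 0 passed with DESeq2 (0.0127% genome-wide). With the pair as a block, 2 passed (0.743% genome-wide), Cep112 and 1810032O08Rik. Cep112, a centrosomal protein, had log2 changes with Dox of 0.39, 0.46 and 0.30 in C1, 2C2 and C11, and of -0.52 and -0.15 in 11C. For 1810032O08Rik they were -0.37, -0.40 and -0.20 in the clones, and 0.17 and 0.30 in 11C. For both genes all clones moved one way and both 11C replicates the other way, while WT was at -0.19 and -0.21.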

How the data were processed

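The authors deposited raw read-pair counts made with featureCounts (version 1.5.2 per the file headers), which assigns pairs to the full extent of each mm10 gene on its own strand, so that intronic pairs count. Each file holds all pairs and those assigned to each parental genome. The submitters' processing notes also name STAR (2.4.2a) and Bowtie2 (2.3.2). Read pairs that overlap 2 genes on a strand were not counted.

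From the counts, 129S shares used genes that averaged 20 or more allelic counts, and dosage used TMM-scaled CPM with a pseudocount of 0.5 for genes that averaged 50 or more counts. Gene tests ran in R (4.3.3) with edgeR (4.0.16), filterByExpr with a minimum count of 10, TMM and Benjamini-Hochberg adjustment over all genes with a threshold of 0.05, separately for the 6 XistDelA libraries, the 4 libraries of 11C and their 10 libraries together. WT, with 1 library in each state, entered none of these tests. DESeq2 (1.42.0) was an alternative, and other values were computed in Python (3.11.15) with pandas (2.3.3) and scipy (1.17.1). The scripts were tested on simulated data. The clone pairs come from the clone names in the labels, each clone being its own cell line. Deviations from the group means correlated between the states with r = 0.600 in C1, 0.371 in 2C2 and 0.541 in C11, and the pairs of the fit over 10 libraries were all above 0.1.

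Genes were named by rule: from each of 6 lists up to 4 measured genes with the highest counts per length, the 3 highest and 3 lowest shares in 2C2, the 3 informative genes on each side of 100 Mb, up to 3 genes in each direction called with Dox with or without the block, and Xist. The members and lists were chosen with earlier results of these data known. Alternatives covered scaling, filters, pseudocount, reference, tool, block and leaving out replicates.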

Additional observations from a re-analysis of the deposited data

Results flagged for a closer look

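Cep112 and 1810032O08Rik stood out because their responses to Dox differed between 11C and the XistDelA clones in the edgeR quasi-likelihood test of that difference, with the pair as a block. They were 2 of 340 tested genes of the segment, beside 117 of 15745 genes (0.743%) genome-wide. The log2 change of Cep112 was lower in 11C by a difference of -0.74 (standard error 0.13, Benjamini-Hochberg adjusted p = 0.0159). Its counts without and with Dox were 3046 and 4318 in C1, 2634 and 4487 in 2C2, 1612 and 2106 in C11, and 4145 and 4935, and 4569 and 4298, in the 11C replicates. For 1810032O08Rik the difference was 0.54 (standard error 0.12, Benjamini-Hochberg adjusted p = 0.0483 in the same edgeR fit). Without the block neither passed, with an adjusted p of 1.00 for both in edgeR. The part of the 11C libraries, which stood apart in Rmrp and in the spread of their ratios, in these differences was not tested.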

How the results depend on the processing

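No median share or dosage and no call changed sign under the alternatives. The median log2 change with Dox over the segment did, in 11C from 0.05 to -0.20 without replicate 1 with Dox. The median difference between the lines went from 0.03 to -0.11 without 11C replicate 1, and to just below 0 without C1. Of the medians and counts recomputed, 85 were taken as the same and 40 moved by more, as follows. Medians were the same if they moved by no more than the spread between libraries. Counts of raised genes and percentages of genes lowest or highest in share were allowed up to 1.5 times. Counts called with Dox had to be equal. With the share summed over genes it was 0.687 in C1, 0.360 in 2C2, 0.519 in C11 and 0.680 in 11C. In C11, whose 2 libraries were nearly equal, it was 0.522 with at least 10 allelic counts, 0.525 with at least 100 and 0.520 with the names left out included. Scaling by library totals gave a median dosage of 0.41 in C1 and 0.26 in WT, with 33 raised genes in WT (3.61% genome-wide). Centring on other autosomes gave 0.43 in C1. These autosomes shifted by over 0.1 in 11C alone, by -0.12 and -0.10 in replicate 2 with TMM and by 0.11, 0.19 and -0.14 in 3 of its libraries with library totals. A pseudocount of 5 CPM, which draws low counts together, gave median dosages of 0.30 in 2C2, 0.28 in C1 and 0.16 in WT, with 78 genes raised in 2C2 (2.98% genome-wide), 53 in 11C (8.97%) and 7 in WT (1.29%). With a mean of at least 10 counts the medians were 0.38 in 2C2 and 0.37 in C1. With at least 500 they were 0.43 and 0.41, and 77, 61, 31 and 5 of 124 genes were raised in 2C2, C1, 11C and WT (4.64%, 9.76%, 9.60% and 1.92% genome-wide). With WT as the reference the medians were 0.18 in 2C2, 0.15 in C1 and 0.20 in 11C, with 27, 26 and 51 genes raised (2.69%, 6.37% and 11.8% genome-wide). Without 11C replicate 1 or 2, alternatives chosen after seeing the data, 90 and 151 genes were raised in 11C (20.6% and 21.3% genome-wide) and its median dosage was 0.27 and 0.55. The clone block took the count with Dox from 0 to 85 genes, and leaving out C1, 2C2 or C11 under it, also chosen after seeing the data, gave 38, 48 and 99 (14.5%, 18.6% and 33.5% genome-wide). DESeq2 gave 2 (2.83% genome-wide). For 11C, leaving out a library gave 0 to 2. In 11C the replicates share only a number, and the replicate block gave 5 genes of the segment (Taco1 and Fads6 up, H3f3b, Gm1564 and Notum down) of 237 genome-wide. The deviations of its pairs correlated with r = 0.694. The block gave 2 genes for the difference between the lines, and it changed no other count. Of the values of single genes, 944 were the same under an alternative, 93 moved, 59 passed the threshold only under an alternative (20 of them under the block with all libraries) and 1, Xist without 2C2, no longer passed. Where no reason is given, the cause was not tested. Depth limits the shares of the 168 genes with a mean under 20 allelic counts, which were not measured.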
